A study of Mus musculus with 5 samples.

Results

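Immediate early genes were followed as a group of 10 genes, Fos, Fosb, Jun, Junb, Atf3, Egr1, Egr2, Nr4a1, Ier2 and Ier3, which were chosen by symbol from the deposited count table. All 10 were found among its 54113 named entries, and all 10 were among the 16133 genes that passed the filter on low counts. The samples are labelled as colorectal cancer (CRC), and the paper names MC-38 mouse colon adenocarcinoma grown in C57BL/6 mice. By these accounts, RNA was sequenced from 3 tumours of mice housed at 30 °C, which is thermoneutral for a mouse. It was also sequenced from 2 tumours of mice housed at 4 °C. Exposure lasted 2 weeks in each group. No genetic change or drug was given to either group, and the age and sex of the mice are not stated in the sample labels. The paper describes the inoculated cells as 1 carcinoma line, and each library was made from bulk tissue, which also holds host cells. A lower level of a transcript can therefore come from fewer cells of a type or from less RNA per cell, which cannot be told apart.

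Immediate early genes are transcribed within minutes of a stimulus, such as a growth factor, stress or a rise in calcium or cyclic AMP, without the need for new protein synthesis. Kinase cascades act on factors already bound at these genes, among them the serum response factor SRF with its partners of the TCF family, and CREB. The products are mostly transcription factors. Fos and Jun proteins pair through leucine zippers to form AP-1, EGR proteins bind DNA through zinc fingers, and Nr4a1 is an orphan nuclear receptor. The transcripts are short-lived, and handling of tissue before freezing is a well-known inducer of several of them.

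The sequence upstream of the gene start was shown for 4 members, because CREB and SRF act through short elements there. In the RefSeq windows of GRCm38.p6, which cover 250 bases before and 50 bases after each start, 8 of the 10 members had an entry, and Egr1 and Ier2 had none. The CREB half-site TGACG, searched on both strands, was found in 6 of these 8 members (Fos, Fosb, Junb, Atf3, Egr2 and Nr4a1) and in 23.05% of all 27025 genes with a window. The full palindrome TGACGTCA, which contains the half-site, was found in 0 of the 8 and in 2.031% of all genes. The CArG box, the element of SRF, was found in Egr2 alone among the 8, against 1.806% of all genes, and the AP-1 element TGACTCA in 0 of the 8, against 5.946%. The TATAAA box was found in Fos and Junb, against 15.67% of all genes. Capitals below mark the half-site on either strand and, in Egr2, the CArG box. The stretches lie on GRCm38.p6 at chr12:85473749-85473840 (plus strand) for Fos, chr7:19310089-19310117 (minus strand) for Fosb, chr8:84978838-84978866 (minus strand) for Junb and chr10:67537746-67537830 (plus strand) for Egr2. None of these 4 stretches overlaps an annotated exon of Gencode vM21, and that of Egr2 lies within the annotated span of its longest form, ahead of an internal start. Nr4a1 held 4 half-sites upstream of 1 of its starts and is not shown. A match is a description of these letters and not proof of a bound site. Sequence outside these windows was not searched, so a missing match does not mean that a gene lacks the element.
Fos: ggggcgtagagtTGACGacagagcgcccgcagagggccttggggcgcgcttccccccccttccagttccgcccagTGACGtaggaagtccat
Fosb: tggagttgcgggTGACGcaagcgcggggg
Junb: gcttcctgacagTGACGcgagccgcctcc
Egr2: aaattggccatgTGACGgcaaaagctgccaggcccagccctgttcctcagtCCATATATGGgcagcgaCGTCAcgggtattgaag

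The members are compact genes. Their median span was 4698.5 bases, against 23974.5 bases for the 13752 protein-coding genes tested, and 8 of the 10 spanned less than 10000 bases, against 24.4% of those genes. Jun and Ier2 consist of 1 exon each. In the 3′ untranslated regions, where AU-rich elements mark short-lived transcripts, 6 members had at least 3 copies of ATTTA, against 38.6% of all coding genes with such a region. The longer element TTATTTATT was found in Fos alone, against 7.93% of all coding genes, and is shown in capitals with its flanks.
Fos: gttttcaatTTATTTATTaagatggat

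Between 16191708 and 20320525 counts per library fell on named genes. Levels are given as counts per 1000000 counts of a library after TMM scaling (CPM), because transcripts of the pancreatic acinar list, summed over 20 genes, took 26.3% of all counts in 30 °C replicate 2 and thereby lowered the unscaled share of other genes there. In the other 4 libraries this list reached between 19.1 and 2490 CPM. B cell markers (13 of 13 above the floor of 3 counts in every library) summed to between 1883 and 5153 CPM. Markers of epithelium and colon carcinoma summed to between 17.9 and 170.0 CPM, with 6 of 10 above the floor in every library and with Krt19, Vil1, Cdx1 and Cdx2 at 0 counts in at least 1 library. The defining markers of the labelled tumour type were thus low or absent in these libraries. Erythroblast markers (10 of 10 above the floor) summed to between 3028 and 6064 CPM and spleen stroma markers (9 of 10) to between 293 and 465 CPM, and the source of these transcripts was not tested. All p-values measure the spread between these 5 libraries, for which the labels name no separate batches.

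To examine whether cold exposure altered the immediate early genes, the 2 libraries at 4 °C were compared with the 3 at 30 °C by the quasi-likelihood test of edgeR over all 16133 genes. No member passed the test. At an adjusted p under 0.05, 0 of the 10 members were called, as were 0% of all genes. At an unadjusted p under 0.05, 0 of the 10 passed, against 6.76% of all genes (2.58% higher and 4.17% lower at 4 °C). With the Wald test of DESeq2, 0 of the 10 were called, against 0.741% of the genes tested. The groups overlapped in all 10 members, whereas they did not overlap in 23.3% of all genes. The smallest adjusted p of a member was 0.83, for Jun. The fitted log2 fold change (4 °C against 30 °C) was positive in 8 members and negative in Egr1 and Ier3, with a median of 0.15 beside a median of 0.01 over all genes, of which 50.7% were positive. This balance rested on single libraries. Without 30 °C replicate 2, 3 members were positive and 7 negative, with a median of −0.05, and without 4 °C replicate 2 the numbers were also 3 and 7, with a median of −0.07.

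**Figure D1:**
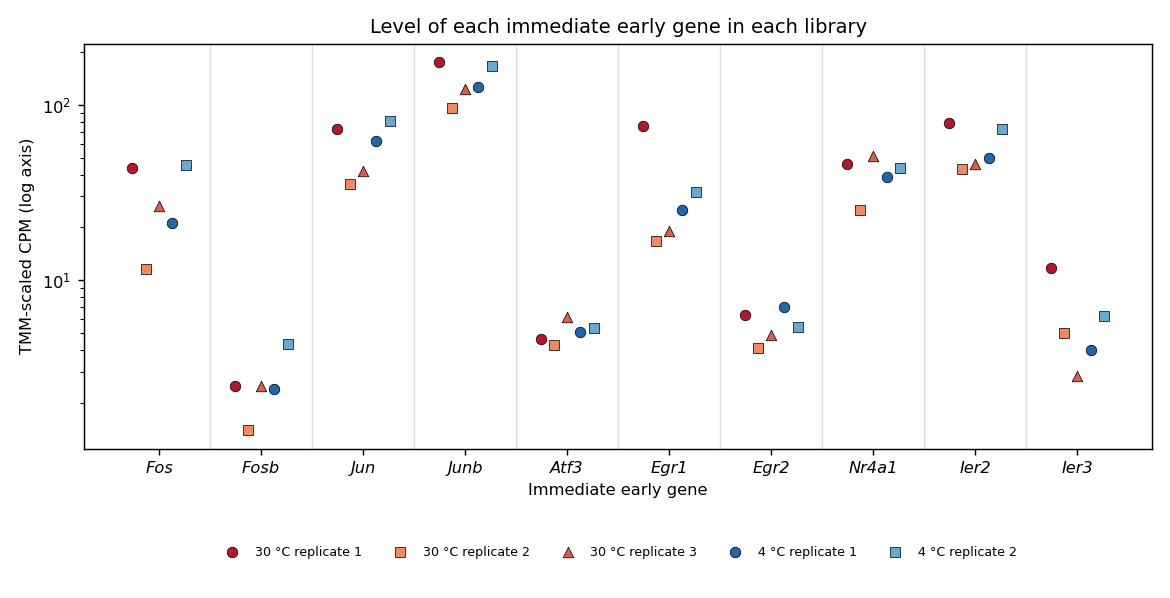
TMM-scaled CPM (log axis) of each immediate early gene, with 1 point for each of the 5 libraries, red and orange for 30 °C and blue for 4 °C. The points of both temperatures overlap in all 10 genes, and 30 °C replicate 2 (orange squares) is the lowest point in 9 of them.

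The levels varied between libraries of the same temperature. Of the 10 members, 9 were lowest in 30 °C replicate 2, against 21.4% of all genes tested on the same scale, and the remaining member, Ier3, was lowest in 30 °C replicate 3. In unscaled CPM the number was also 9, but 64.1% of all genes were lowest in that library there. Relative to the median of the other 4 libraries, members in 30 °C replicate 2 stood between 0.331-fold (Fos) and 0.981-fold (Ier3), with a median of 0.621-fold. Over all genes tested, the median in TMM-scaled CPM was 0.974-fold. In unscaled CPM the median was 0.434-fold for the members and 0.664-fold over all genes. With the acinar genes removed from the totals, the members' median was 0.588-fold, and no value over all genes was computed on that scale. At the other end, 4 members (Junb, Egr1, Ier2 and Ier3) were highest in 30 °C replicate 1, against 18.9% of all genes, and 3 (Fos, Fosb and Jun) in 4 °C replicate 2, against 25.9%. Atf3 and Nr4a1 were highest in 30 °C replicate 3 (18.1% of all genes), Egr2 in 4 °C replicate 1 (17.6%) and no member in 30 °C replicate 2 (19.5%). Summed over the 10 members, the level was 516 CPM in 30 °C replicate 1, 242 in 30 °C replicate 2, 323 in 30 °C replicate 3, 342 in 4 °C replicate 1 and 463 in 4 °C replicate 2. The 2 highest sums thus came from different temperatures.

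**Figure D2:**
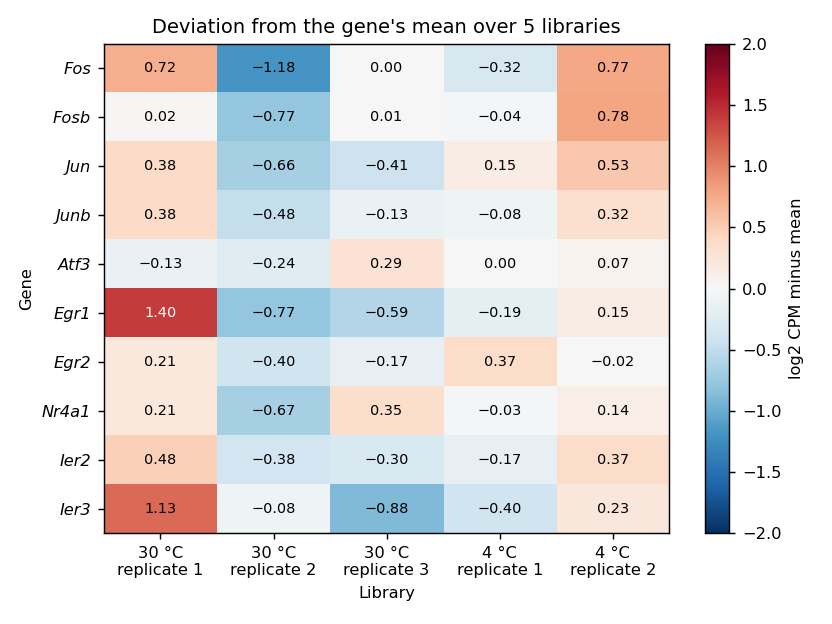
Log2 CPM of each immediate early gene minus its own mean over the 5 libraries, with genes as rows and libraries as columns, and with red above and blue below the mean. The column of 30 °C replicate 2 is below 0 in all 10 genes, and Egr1 and Ier3 stand out above 1 in 30 °C replicate 1.

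Marker lists also differed between these libraries, and not all in the same direction. The list of heat shock genes, which respond to stress, handling included, was lowest in 30 °C replicate 2 at 2036 CPM, and lay between 2923 and 3723 CPM elsewhere (9 of 9 above the floor in every library). It was highest in 4 °C replicate 1. Smooth muscle markers (10 of 10 above the floor) had 306, 284 and 356 CPM at 30 °C and 603 and 593 CPM at 4 °C. Spleen stroma markers had 330, 293 and 366 CPM at 30 °C and 418 and 465 CPM at 4 °C. Both lists were lowest in 30 °C replicate 2, and both were higher at 4 °C than in every library at 30 °C. Macrophage markers were also lowest in 30 °C replicate 2, at 2159 CPM, and highest in 30 °C replicate 1, at 3473 CPM (12 of 12 above the floor). Neutrophil markers (12 of 12 above the floor) stood at 12939.6 CPM in 30 °C replicate 1 and at 8533 CPM in replicate 2 of that group, against 2573 to 4145 in the other 3 libraries. In 30 °C replicate 2, by contrast, erythroblast markers (6064 CPM), the acinar list and the markers of epithelium and colon carcinoma (170 CPM) were highest. B cell (1883 CPM), T cell (338 CPM) and endothelium markers (310 CPM) were lowest in 30 °C replicate 1. The part of these lists in the levels of the immediate early genes was not tested.

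Fos, the founding member of AP-1, had the widest range of the 5 leucine zipper genes among the members, 3.90-fold from the lowest to the highest library. It stood at 43.5, 11.6 and 26.4 CPM in replicates 1, 2 and 3 at 30 °C, and at 21.2 and 45.1 CPM in replicates 1 and 2 at 4 °C. Its 2 libraries at 4 °C thus differed 2.13-fold from each other and lay within or just above the range at 30 °C. Mean levels of Fos were 27.2 CPM at 30 °C (SD 15.97, n = 3) and 33.1 CPM at 4 °C (SD 16.9, n = 2). The difference was small beside this spread, with a log2 fold change of 0.28 (95% interval −1.12 to 1.68, standard error 0.57, edgeR adjusted p = 0.94). Without 30 °C replicate 2 the value was −0.09, and without 4 °C replicate 2 it was −0.38.

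Fosb encodes a relative of Fos that is the scarcest of the group. Its counts were 47, 17 and 57 at 30 °C and 48 and 72 at 4 °C, or 2.50, 1.39 and 2.49 CPM and 2.38 and 4.31 CPM. Only 4 °C replicate 2 exceeded the other libraries. Fosb had the highest fitted log2 fold change of the members, 0.64 (edgeR adjusted p = 0.83, standard error 0.45), which stayed positive with each library left out, from 0.15 to 1.01.

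Jun, the main partner of Fos in AP-1, lies on chromosome 4 of GRCm38 from 95049034 to 95052222. It had 72.9, 35.2 and 42.0 CPM at 30 °C and 62.0 and 80.8 CPM at 4 °C. The libraries at 4 °C were on either side of the highest library at 30 °C. The log2 fold change was 0.51 (95% interval −0.29 to 1.31, standard error 0.33, edgeR adjusted p = 0.83) and lay between 0.29 and 0.89 with each library left out. Without 30 °C replicate 1 the unadjusted p of Jun was 0.0080 (adjusted p = 0.80 from edgeR). In 232 bases its exon overlaps the antisense gene Junos, and whether counting used the strand is not stated in the sources used here.

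Junb, which pairs with Fos proteins and can restrain Jun, was the most abundant member. It had 174, 95.7 and 122 CPM at 30 °C and 127 and 167 CPM at 4 °C. Both values at 4 °C fell inside the range at 30 °C. The log2 fold change was 0.17 (edgeR adjusted p = 0.93, standard error 0.29). Exons of Prdx2 on the opposite strand share 173 bases with Junb. Atf3, a stress-induced factor of the ATF family that often represses, had the narrowest range among the members, 1.45-fold from the lowest to the highest library, with 4.62, 4.26 and 6.19 CPM at 30 °C and 5.07 and 5.33 CPM at 4 °C. Its log2 fold change was 0.04 (95% interval −0.68 to 0.77, standard error 0.30, edgeR adjusted p = 0.98).

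Egr1, a zinc finger factor induced through SRF, was dominated by a single library. It stood at 75.9 CPM in 30 °C replicate 1, against 16.7 and 19.0 CPM in the other libraries at 30 °C and 24.99 and 31.7 CPM at 4 °C. Mean levels of Egr1 were 37.2 CPM at 30 °C (SD 33.5, n = 3) and 28.4 CPM at 4 °C (SD 4.76, n = 2), and the log2 fold change was −0.39 (edgeR adjusted p = 0.93, standard error 0.71). Without 30 °C replicate 1 its direction turned, to 0.67 (edgeR unadjusted p = 0.033, adjusted p = 0.80, standard error 0.25). Egr2, a close relative known from T cells and Schwann cells, had 6.33, 4.10 and 4.84 CPM at 30 °C and 7.05 and 5.39 CPM at 4 °C. It did not follow the peak of Egr1 in 30 °C replicate 1. Its log2 fold change was 0.29 (edgeR adjusted p = 0.88, standard error 0.32).

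Nr4a1, which is induced by antigen receptor signalling among other stimuli, had 45.9, 25.001 and 50.8 CPM at 30 °C and 38.9 and 43.8 CPM at 4 °C. The libraries at 4 °C lay between those at 30 °C, and the log2 fold change was 0.02 (95% interval −0.73 to 0.78, standard error 0.31, edgeR adjusted p = 0.99). It was −0.24 without 30 °C replicate 2. Ier2, a nuclear early response protein, had 78.6, 43.3 and 45.7 CPM at 30 °C and 50.02 and 72.9 CPM at 4 °C, with a log2 fold change of 0.14 (edgeR adjusted p = 0.95, standard error 0.32). Ier3, an early response gene linked to cell survival, had 11.7, 5.0 and 2.83 CPM at 30 °C and 3.97 and 6.22 CPM at 4 °C. Like Egr1 it was highest in 30 °C replicate 1, where the neutrophil markers were also highest. Its log2 fold change was −0.35 (edgeR adjusted p = 0.93, standard error 0.61), and 0.39 without that library.

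**Figure D3:**
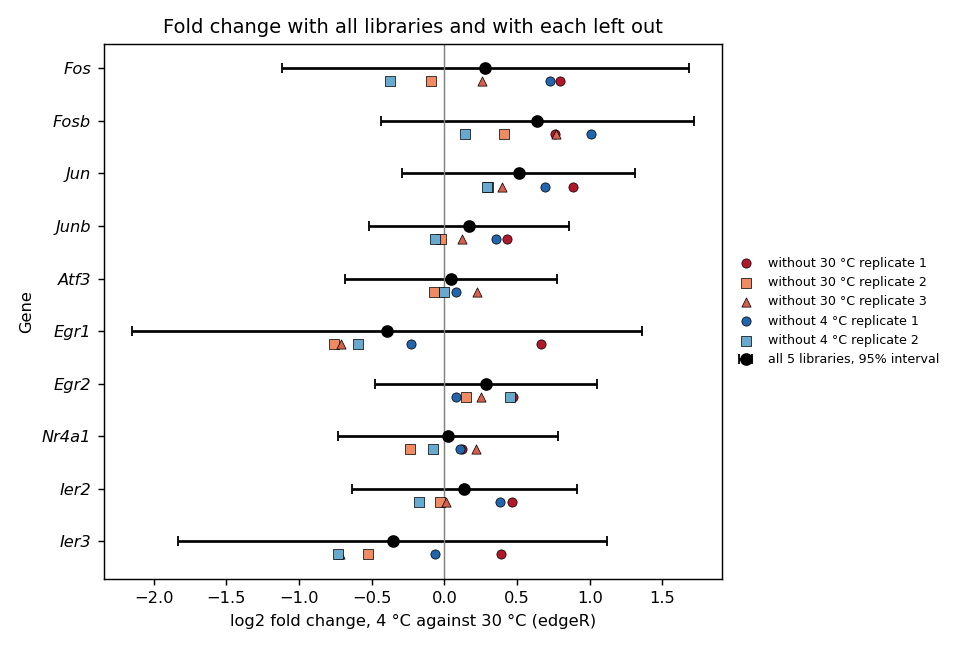
Log2 fold change (4 °C against 30 °C) of each immediate early gene. Black points and bars are the edgeR estimate and its 95% interval with all 5 libraries, and coloured points below are the estimates with 1 library left out. Every black bar crosses 0, and the estimate of Egr1 moves from −0.39 to 0.67 without 30 °C replicate 1.

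The members differed in how much they varied between libraries of the same group. The biological coefficient of variation fitted by edgeR was 0.53 for Egr1, 0.50 for Ier3, 0.45 for Fos and 0.39 for Fosb, which placed them at percentiles 93.4, 91.5, 88.3 and 80.4 of all genes tested. The other 6 members lay between percentiles 46.2 (Junb) and 60.5 (Egr2). The median was 0.31 over the members and 0.28 over all genes. By this fitted value, Junb and Ier2 were near the middle of all genes, whereas Egr1, Ier3 and Fos were among the more variable ones. The rank is over genes of any level, and by level Junb and Ier2 stood at percentiles 92.2 and 77.0. Genes of like level were not compared.

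Ratios of counts within a library do not depend on scaling, and they were computed for 8 pairs of members. Ier2 and Junb kept the closest proportion, with 0.374 to 0.452 Ier2 counts for each Junb count in the 5 libraries. The ratio of Junb to Jun was 2.39, 2.72 and 2.91 at 30 °C and 2.04 and 2.07 at 4 °C. It was the only 1 of the 8 ratios whose groups did not overlap, and it was singled out after its values were seen. An exact two-sided permutation test of 3 libraries against 2 can only give p = 0.2 for groups that are apart. The test therefore adds nothing to the values. The levels of single genes did not overlap in 23.3% of all genes, and no such share was computed for ratios of other genes. The ratio of Egr1 to Egr2 was 12 in 30 °C replicate 1 and between 3.54 and 5.89 in the other libraries. Fos fell into neither pattern. For each Jun count there were 0.597 Fos counts in 30 °C replicate 1, 0.328 in replicate 2 and 0.630 in replicate 3, and 0.341 and 0.559 at 4 °C.

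**Figure D4:**
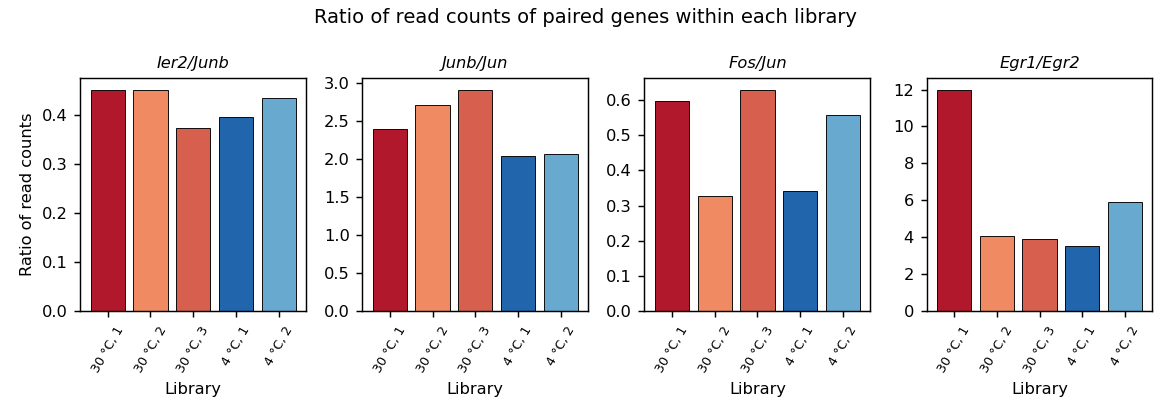
Ratio of read counts of 4 pairs of immediate early genes in each library (linear axes from 0, red and orange bars for 30 °C and blue bars for 4 °C). The ratio of Ier2 to Junb stays between 0.374 and 0.452, whereas that of Egr1 to Egr2 reaches 12 in 30 °C replicate 1.

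Per length, in TMM-scaled CPM per 1000 bases of annotated exon, the level was highest for Junb (mean 59.7 over the 5 libraries, range 41.6 to 75.8), followed by Ier2 (38.2, range 28.4 to 51.7), Jun (18.4, range 11.1 to 25.3), Fos (12.6, range 4.91 to 19.2) and Nr4a1 (11.7, range 7.12 to 14.5). Egr1 (7.51), Ier3 (5.26), Atf3 (2.37), Egr2 (1.63) and Fosb (0.419) followed. Within each of the 5 libraries, Junb lay above Ier2, Ier2 above Jun, Jun above Fos, Atf3 above Egr2 and Egr2 above Fosb. Fos lay above Nr4a1 in 2 libraries only, and the orders of Nr4a1 and Egr1, Egr1 and Ier3, and Ier3 and Atf3 each held in 4. Over all libraries together, the ranges of neighbours overlapped, except for Ier2 and Jun and for Egr2 and Fosb (highest library of Fosb 0.690, lowest of Egr2 1.21). Junb reached percentile 94.1 of all genes with an annotated length, and Fosb percentile 10.7.

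The profile of the group over the 5 libraries was compared with every other tested gene, by the root mean square difference of the centred log2 CPM from the median profile of the members. The members themselves make up this median, so their own nearness to it is partly built in. The nearest genes outside the group were Gm49041 (0.038), Tns2 (0.046), Rdh12 (0.051), Rpusd1 (0.064) and Cdc42ep2 (0.064), while the median over all genes was 0.45. Tns2, an actin-associated tensin, had 30.2, 15.7 and 19.8 CPM at 30 °C and 21.6 and 28.4 CPM at 4 °C. Over 5 libraries such likeness is a description only. The members did not share 1 profile, since Egr1 and Ier3 differed from the median profile by 0.51 and 0.54, more than the median of all genes.

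The genes around the immediate early genes, in 9 lists by role, numbered 114 tested genes. None was called at an adjusted p under 0.05 by edgeR. At an unadjusted p under 0.05, 8 passed, 5 higher and 3 lower at 4 °C, a share close to the 6.76% of all genes. Of the 114 genes, 68 were higher and 46 lower, with a median log2 fold change of 0.07, and without 30 °C replicate 2 the numbers were 52 and 62, with a median of −0.04. The inducible early genes outside the members were lowest in 30 °C replicate 2 in 16 of 28 cases. The number was 9 of 16 for the feedback inhibitors, among them inhibitors of MAP kinase and NF-κB signalling. For the MAP kinase cascade itself the number was 6 of 26, but for the SRF, TCF and CREB factors it was 7 of 13. It was 3 of 6 for the mRNA decay factors, 3 of 6 for the KLF genes and 5 of 14 for the other AP-1, ATF and MAF relatives. The other EGR and NAB genes had 1 of 3 and the other NR4A genes 0 of 2. All 9 lists together had 50 of 114. The background of 21.4% applies to each.

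Among other inducible early genes, 20 of 28 were higher and 8 lower at 4 °C, beside 50.7% higher over all genes. Without 30 °C replicate 2 the same list split into 14 and 14, and its median log2 fold change went from 0.17 to 0.0023. At an unadjusted p under 0.05, 3 were higher (Ier5, Btg1 and Id3), against 2.58% of all genes. Id3, which encodes an inhibitor of basic helix-loop-helix factors, had 42.2, 34.8 and 41.0 CPM at 30 °C and 56.7 and 72.9 CPM at 4 °C. Its groups did not overlap, and its log2 fold change was 0.72 (edgeR unadjusted p = 0.0083, adjusted p = 0.69, standard error 0.19). In the KLF list, Klf2, a factor of quiescent lymphocytes and of endothelium under flow, had 112, 94.2 and 127 CPM at 30 °C and 178 and 209 CPM at 4 °C. Both libraries at 4 °C stood above all 3 at 30 °C, and the log2 fold change was 0.80 (edgeR unadjusted p = 0.0052, adjusted p = 0.69, standard error 0.19). B and T cell markers were lowest in 30 °C replicate 1, at 1883 and 338 CPM, and both lists were higher at 4 °C than in any library at 30 °C. B cell markers had 5153 and 4585 CPM at 4 °C, against up to 4474 CPM at 30 °C. T cell markers had 743 and 784 CPM at 4 °C, against up to 556 CPM at 30 °C. Their part in the values of Klf2 and Id3 was not tested.

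Among the feedback inhibitors, 9 of 16 were higher and 7 lower, with a median of 0.07, and without 30 °C replicate 2 the numbers were 6 and 10, with a median of −0.08. Dusp8, a phosphatase of stress-activated kinases, had 21.5, 14.6 and 7.54 CPM at 30 °C and 5.32 and 5.45 CPM at 4 °C, a log2 fold change of −1.43 (edgeR unadjusted p = 0.018, adjusted p = 0.69, standard error 0.45). Dusp2 was the other member of this list with an unadjusted p under 0.05, and it was higher at 4 °C. In the other lists, the genes with the smallest p were Nab2, a corepressor of EGR proteins (log2 fold change 0.60, unadjusted p = 0.056 from edgeR), Batf3, a leucine zipper factor of dendritic cells (0.59, unadjusted p = 0.054), Crtc2, a coactivator of CREB (0.37, unadjusted p = 0.095), Khsrp, an mRNA decay factor (−0.24, unadjusted p = 0.18), Rps6ka2, a kinase downstream of ERK (−0.63, unadjusted p = 0.048), and Nr4a3 (0.53, unadjusted p = 0.42). Of the MAP kinase cascade, 12 genes were higher and 14 lower, and Braf and Rps6ka2 had an unadjusted p under 0.05, both lower. Adjusted p-values of these named genes lay between 0.69 and 0.89. Ier5, Btg1, Dusp2 and Braf were named after their values were seen.

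**Figure D5:**
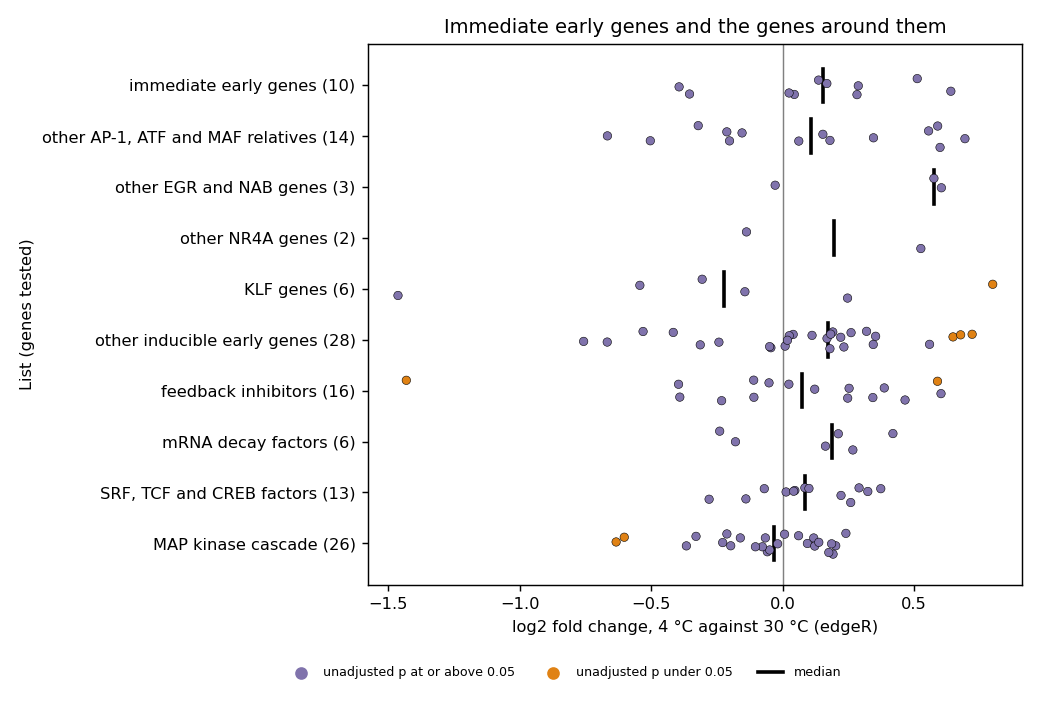
Log2 fold change (4 °C against 30 °C, edgeR) of each tested gene in the immediate early group and in 9 lists around it, with the number of genes tested in brackets and the median as a black line. Orange marks an unadjusted p under 0.05, which none of the 10 immediate early genes and 8 of the 114 other genes reached.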

How the data were processed

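RNA from 5 samples labelled as CRC was sequenced by the authors on an Illumina platform after TruSeq library preparation. The deposited values are whole-number counts of reads per gene. The study's methods name featureCounts on Gencode vM19, whereas, per the labels, the submitters' processing notes name fastp, HISAT, RSEM and GRCm38, so which counter the authors used for this table is not settled. The strand setting is not given in the sources used here. Entries without a gene name (333, 0.0101% to 0.0170% of counts per library) were left out. Where 2 or more entries had 1 symbol (97 symbols), each was tested and the most abundant kept the plain symbol.

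Counts were filtered with filterByExpr, scaled by TMM and tested in edgeR 4.0.16 (R 4.3.3) by the robust quasi-likelihood F-test without covariates, with Benjamini-Hochberg adjustment over 16133 genes. Log2 CPM used a prior count of 2. Alternatives were DESeq2 1.42.0, other scalings and filters, removal of acinar genes, a replicate block and each library left out. DESeq2 without 30 °C replicate 2 was added after seeing the data. Where 1 library at 4 °C was left out, the remaining one was assumed to vary like the others. The methods were tested on simulated counts.

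The members and gene lists were chosen with earlier results of these data known. Named genes were all members, the gene with the smallest p in each list by role, and the 5 genes nearest to the members' median profile. Gene positions and lengths come from Gencode vM21 and promoter windows from RefSeq, both on GRCm38. With 16191708 to 20320525 counts, a floor of 3 counts equals 0.148 to 0.185 CPM.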

Additional observations from a re-analysis of the deposited data

How the results depend on the processing

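None of the 10 members was called under any of the 15 alternatives, with a smallest adjusted p of 0.64, and all 9 other named genes kept their direction. Among those 9, Klf2 had an adjusted p of 0.069 with the Wald test of DESeq2, against 0.69 with edgeR. With DESeq2 without 30 °C replicate 2 its adjusted p was 0.9999. Over all genes, the count of 0 calls became 112 with DESeq2, 44 with the replicate block, 8 with the library total alone, 4 with DESeq2 without 30 °C replicate 2 (chosen after seeing the data) and 1090 at an unadjusted p under 0.05. It was 0 in the other alternatives with adjusted p, and the cause was not tested. The replicate block changed no call of a member (median log2 fold change 0.25). Only 2 replicate numbers are shared between the groups, and the numbers were not taken as pairs in the main test. The deviations of same-numbered libraries from their group means correlated over genes at −0.25 (replicate 1) and 0.26 (replicate 2). With 2 libraries at 4 °C these deviations mirror each other, so the correlations cannot decide whether libraries were paired. Scaling changed no direction of a member. The library total alone shifted the median of all genes from 0.01 to 0.11 and that of the members from 0.15 to 0.22.

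With each library left out in turn, the median of the members ranged from −0.07 to 0.47. The log2 fold change ranged from −0.38 to 0.79 for Fos, −0.062 to 0.43 for Junb, −0.069 to 0.22 for Atf3, −0.76 to 0.67 for Egr1, −0.24 to 0.22 for Nr4a1, −0.18 to 0.46 for Ier2 and −0.73 to 0.39 for Ier3. DESeq2 without 30 °C replicate 2 gave −0.093 for Fos, −0.027 for Junb, −0.071 for Atf3, −0.24 for Nr4a1 and −0.031 for Ier2. Fosb, Jun and Egr2 stayed positive throughout. At 2 libraries against 3, the 95% intervals of the members were wide, up to −2.15 to 1.36 for Egr1.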
